A study of Homo sapiens with 6 samples.

Results

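The genes described here carry a cell from G1 into S phase and copy its DNA. They are 46 genes named by symbol, from origin licensing to nucleotide supply, and all 46 were found once each among the 26789 genes of the expression table. RNA came from the wild-type human neuroblastoma line SK-N-SH, whose cells were cultured for 24 hours and then kept for 6 h in medium with dopamine (DA+, 3 libraries) or in medium alone (DA-, 3 libraries). For dopamine a dose of 40 M is labelled, apparently short of a prefix, so it is not interpreted. The design text of the series speaks of SH-SY5Y, a subline of SK-N-SH, while each of the 6 libraries is labelled SK-N-SH. Nothing in the labels ties a library to its own culture, and the p-values below therefore cover the spread between libraries, which may be technical.

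Replication is prepared in G1, when the origin recognition complex, CDC6 and CDT1 load the ring of MCM2 to MCM7 onto DNA. The kinase encoded by CDC7 and the cyclin E kinases then convert the loaded rings into active helicases with CDC45 and the GINS complex, and polymerases, clamp and clamp loader follow at the fork. Most of these genes are targets of the E2F transcription factors, which are held back by the retinoblastoma protein in resting cells, so their transcripts are widely used as a sign of cells in cycle. The series asks what dopamine does to the proliferation of these cells, and the comparison of DA+ with DA- cells shows whether these transcripts differed after 6 h.

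No gene of the group passed the test. Of the 46 genes 44 had a mean FPKM of 1 or more and were tested (FPKM is a gene's fragment number relative to its length and the library size), and 0 of the 44 had an adjusted p under 0.05 (limma, two-sided, Benjamini-Hochberg over 11791 genes), where 0.102% of all tested genes did (0.0848% higher and 0.0170% lower in DA+ cells). Their log2 fold changes, DA+ over DA-, ran from -0.34 for E2F2 to 0.46 for RRM1, with a median of 0.09 against 0.08 over all tested genes. At an unadjusted p under 0.05 lay 17 members. Of these 9 were higher in DA+ cells (20.5%, against 24.4% of all tested genes) and 8 were lower (18.2%, against 8.05%). The higher ones were CDC6, MCM6, CDC7, PRIM1, FEN1, EXO1, CLSPN, ATAD2 and RRM1, and the lower ones CDT1, MCM2, MCM5, MCM7, POLD1, UHRF1, E2F1 and E2F2. In 18 members (40.9%) the 3 DA+ values did not overlap the 3 DA- values, 8 of them lying above and 10 below. Over all tested genes this held for 38.4%, with 24.4% above and 14.1% below.

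The count of 17 was 10 (22.7%, against 27.9% of all genes) without DA+ replicate 2 and 7 (15.9%, against 16.9%) without DA+ replicate 3. It was 9 (20.5%, against 19.2%) without DA- replicate 2 and 6 (13.6%, against 16.4%) without DA- replicate 3. After a correction of each library for GC content and transcript length it was 9 (20.5%, against 16.8%). The count also fell in other settings, among them median-of-ratios scaling, with 13 members (29.5%, against 31.0%). With both replicates numbered 3 left out it was 6 (13.6%, against 13.1%). In some settings the count did not fall. The share of members was 38.6% (against 30.3%) without DA+ replicate 1, 45.5% (against 37.7%) without DA- replicate 1 and 47.7% (against 43.0%) with sample quality weights. Members passed the adjusted threshold under 2 of 21 alternative settings, in which many other genes did so too. With sample quality weights 9 members passed, which is 20.5% against 22.9% of all tested genes. Without DA- replicate 1 the number was 5, or 11.4% against 18.5%, all of them higher in DA+ cells (CDC6, MCM6, POLA1, PRIM1 and RRM1). With the replicate number as a block 8 members (18.2%) had an unadjusted p under 0.05, against 21.9% of all genes, and 0 passed the adjusted threshold, against 0.0254%. CDC6, MCM2 and MCM7 were the members that kept their direction and an unadjusted p under 0.05 in 21 of 21 settings.

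**Figure D1:**
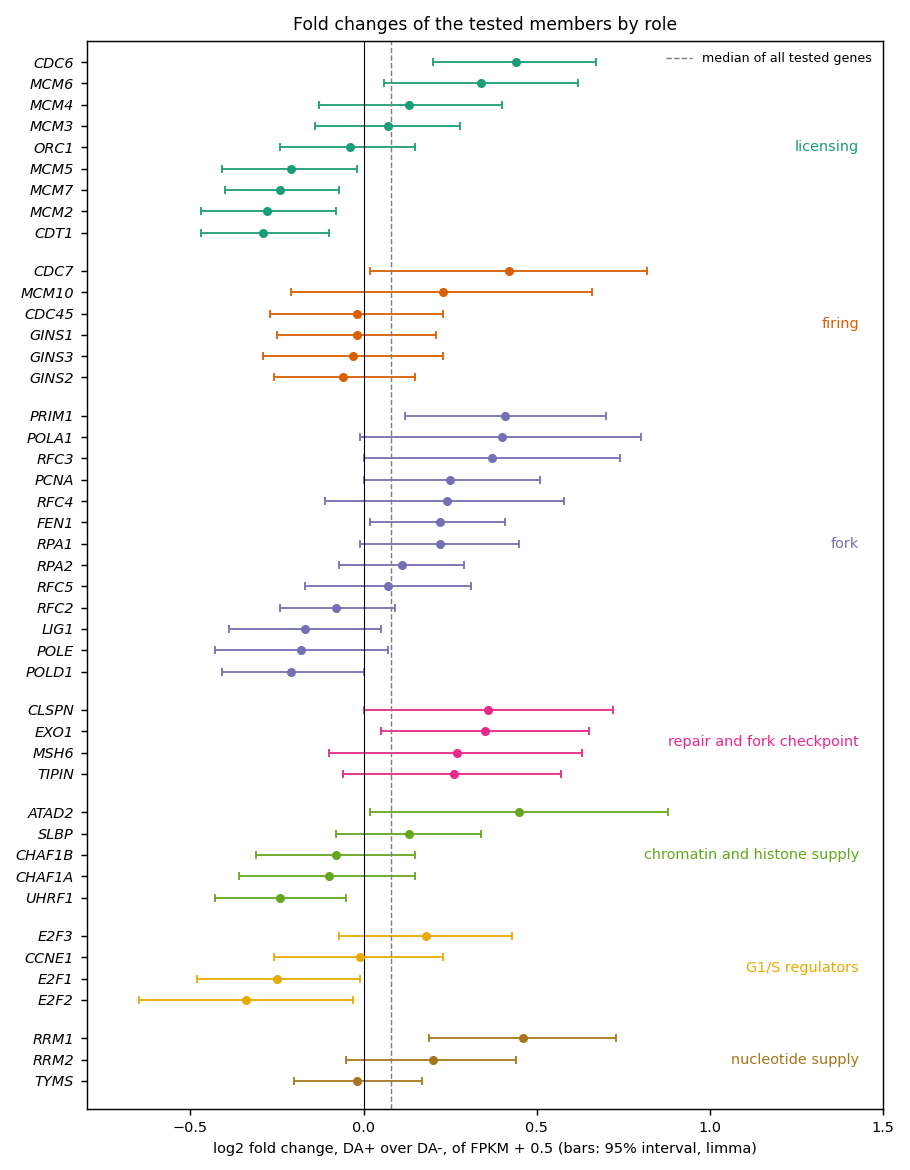
Log2 fold change of FPKM + 0.5, DA+ over DA-, for the 44 tested members, grouped by role, with 95% intervals from limma (horizontal axis), and the median of all tested genes as a dashed line at 0.08. The points run from -0.34 (E2F2) to 0.46 (RRM1), and the licensing genes lie on either side of 0, with CDC6 at 0.44 and CDT1 at -0.29.

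What the genes share beyond their selection was looked for in their promoters, since E2F sites are the textbook feature of the group. RefSeq windows on GRCh38.p14, from 250 bases before to 50 after the annotated start, were present for 41 of the 46 genes and not for MCM4, MCM5, RPA2, ATAD2 and CCNE2. An E2F core word (TTCCCGC, the variant TTCGCGC, the variant TTGCCGC or the variant TTGGCGC, on either strand) stood in 33 of the 41 windows, or 80.5%, against 13.0% of all 35116 windows and 19.5% of those of the tested genes. CCAAT, the word bound by NF-Y, stood in 25 windows (61.0%, against 34.6% of all and 34.7% of those of the tested genes). The word TTTGAA or its variant TTCGAA, found in promoters of genes expressed later in the cycle, stood in 3 windows (7.32%, against 16.4% of all and 11.1% of those of the tested genes). The promoter windows of the group had a median GC content of 67.3%, those of the tested genes 65.3%. The E2F word was found on either side of the comparison, in 7 of 8 windows of members higher in DA+ cells and in 6 of 7 windows of members lower there, counting those at an unadjusted p under 0.05. A word match is a description of these letters and not evidence of binding. The promoters of the 2 higher and the 2 lower members with the smallest p are given as examples on the strand of the gene, with E2F words in capitals. They lie at chr17:40287629-40287928 (CDC6, plus strand), chr11:4094435-4094734 (RRM1, plus strand), chr16:88803539-88803838 (CDT1, plus strand) and chr3:127598161-127598460 (MCM2, plus strand).
CDC6: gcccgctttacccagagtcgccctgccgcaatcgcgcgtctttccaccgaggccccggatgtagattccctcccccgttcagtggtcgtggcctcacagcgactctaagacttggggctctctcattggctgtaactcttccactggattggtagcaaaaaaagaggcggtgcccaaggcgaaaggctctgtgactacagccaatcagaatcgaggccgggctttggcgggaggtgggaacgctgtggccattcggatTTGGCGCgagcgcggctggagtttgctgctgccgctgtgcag
RRM1: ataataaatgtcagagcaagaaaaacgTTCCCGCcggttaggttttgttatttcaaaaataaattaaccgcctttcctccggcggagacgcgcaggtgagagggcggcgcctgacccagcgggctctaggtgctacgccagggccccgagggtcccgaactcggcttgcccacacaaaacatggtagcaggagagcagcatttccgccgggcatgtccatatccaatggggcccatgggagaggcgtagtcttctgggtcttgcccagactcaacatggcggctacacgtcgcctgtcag
CDT1: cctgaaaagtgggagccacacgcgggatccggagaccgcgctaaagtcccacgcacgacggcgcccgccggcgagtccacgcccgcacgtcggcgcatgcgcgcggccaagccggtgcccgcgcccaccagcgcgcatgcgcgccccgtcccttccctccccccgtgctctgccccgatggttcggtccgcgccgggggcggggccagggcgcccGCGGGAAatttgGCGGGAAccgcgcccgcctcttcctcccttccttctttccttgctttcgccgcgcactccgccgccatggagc
MCM2: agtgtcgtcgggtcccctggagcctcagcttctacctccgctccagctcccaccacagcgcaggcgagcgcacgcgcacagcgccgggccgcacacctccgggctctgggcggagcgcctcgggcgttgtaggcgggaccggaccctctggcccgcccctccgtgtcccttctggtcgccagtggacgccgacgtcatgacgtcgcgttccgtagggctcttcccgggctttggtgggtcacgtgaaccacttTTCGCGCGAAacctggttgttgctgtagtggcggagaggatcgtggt
In CDT1 the 2 words stand on the opposite strand, 35 and 23 bases before the start. In MCM2 the 2 words overlap, one on each strand, and begin just after the start. CDC6 and RRM1 have 1 word each, the first just after the start and the second 223 bases before it.

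Several facts of the libraries bear on every value below. The library totals, recovered from the steps between low FPKM values, were 19394000 to 21377000 fragments in DA+ and 20676000 to 24232000 in DA- libraries. Expression depended on GC content in a way that moved with the groups. Regressed on GC content, a library's log2 deviation from the mean had slopes (per 10 points) of -0.03, -0.06 and -0.26 in DA+ replicates 1, 2 and 3, against 0.02, 0.11 and 0.22 in DA- replicates 1, 2 and 3 (two-sided p = 0.10 by an exact permutation test, which with 3 against 3 can go no lower). DA+ replicate 3 and DA- replicate 3 stood farthest apart. The labelled cell type was checked against 10 adrenergic and 8 mesenchymal neuroblastoma genes, and 8 of each list had a mean FPKM of 1 or more, among them HAND2 at 132 FPKM in DA+ and 128 FPKM in DA- cells (TH was not analysed here). PTPRC, the pan-leukocyte gene, and CDH5, an endothelial gene, were at or near 0. Of 5 epithelial genes 1 had the higher mean in DA+ cells, with a summed FPKM of 105 to 121 in DA+ and 140 to 175 in DA- libraries, most of it from KRT18, at 95.4 FPKM in DA+ and 141 FPKM in DA- cells, while EPCAM and CDH1 stayed under 0.2 FPKM. The 3 nuclear-retained RNAs in the table each had the higher mean in DA+ cells, with a sum of 2.38 to 4.57 FPKM in DA+ and 1.82 to 2.39 FPKM in DA- libraries. MALAT1 and NEAT1 were low, at 1.80 and 1.51 FPKM in DA+ cells and 1.03 FPKM each in DA- cells. KCNQ1OT1 was near 0, at 0.00953 FPKM in DA+ and 0.00377 FPKM in DA- cells, so its direction cannot be read. The part of these differences in the results on replication genes was not tested, beyond the GC and length correction given beside them. RNA of bulk cultures cannot tell fewer cells in S phase from less RNA per cell.

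The licensing genes held the members with the smallest p on either side. CDC6 (ENSG00000094804.5, hg19 chromosome 17, 38443885 to 38459171), whose ATPase loads the MCM ring with the origin recognition complex, had 11.1, 11.9 and 13.3 FPKM in DA+ replicates 1 to 3, against 9.68, 7.97 and 8.69 FPKM in DA- replicates 1 to 3. All DA+ values lay above all DA- values, with means of 12.1 ± 1.11 FPKM in DA+ and 8.78 ± 0.860 FPKM in DA- cells (SD, n = 3 each). The log2 fold change was 0.44 (SE 0.10, unadjusted p = 0.00210, adjusted p = 0.11) and 0.21 (unadjusted p = 0.00867, adjusted p = 0.181) once GC content and length were corrected for. CDT1 (ENSG00000167513.4, hg19 chromosome 16, 88869621 to 88875666), which brings the ring to the origin and is destroyed once S phase begins, went the other way. It had 10.8, 11.7 and 11 FPKM in DA+ replicates 1 to 3, against 13.1, 14.0 and 14.3 FPKM in DA- replicates 1 to 3. The groups did not overlap, and the log2 fold change was -0.29 (SE 0.08, adjusted p = 0.11), or -0.11 (adjusted p = 0.434) after the correction. The FPKM of CDC6 divided by that of CDT1, a pair chosen after their values were seen, was 1.02, 1.01 and 1.21 in DA+ libraries, against 0.741, 0.570 and 0.609 in DA- libraries. The ratio restates the opposite directions of the pair. The transcripts differ in GC content, at 45.5% for CDC6 and 64.9% for CDT1. ORC1, the cycle-regulated subunit gene of the origin recognition complex, had nearly equal means of 7.24 ± 0.202 FPKM in DA+ and 7.48 ± 0.289 FPKM in DA- cells (SD, n = 3 each), and its log2 fold change of -0.04 had a 95% interval of -0.24 to 0.15.

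The 6 genes of the MCM ring, whose products form 1 complex, did not share a direction. MCM7 had 71.5, 75.3 and 68.5 FPKM in DA+ replicates 1 to 3, against 80.8, 84.2 and 88.8 FPKM in DA- replicates 1 to 3. MCM2 (ENSG00000073111.9, hg19 chromosome 3, 127317066 to 127341276) had 24.8, 25.9 and 22.3 FPKM in DA+ libraries, against 28.0, 29.1 and 31.4 FPKM in DA- libraries. In both genes every DA+ library lay below every DA- library, with log2 fold changes of -0.24 (SE 0.07, adjusted p = 0.111) for MCM7 and -0.28 (SE 0.08, adjusted p = 0.11) for MCM2. MCM5 was lower too, at 17.3, 17.4 and 16.1 FPKM in DA+ libraries, against 18.5, 19.1 and 21.6 FPKM in DA- libraries with a log2 fold change of -0.21 (SE 0.09, limma adjusted p = 0.137). MCM6 stood on the other side, with 10.1, 10.5 and 12.8 FPKM in DA+ libraries, against 10.1, 8.10 and 7.88 FPKM in DA- libraries. Its groups did not overlap, although DA+ replicate 1 and DA- replicate 1 round to the same value, and its log2 fold change was 0.34 (SE 0.12, adjusted p = 0.121). MCM3 and MCM4 overlapped between the groups, with log2 fold changes of 0.07 (95% interval -0.14 to 0.28) and 0.13 (-0.13 to 0.40). The 3 lower subunit genes had transcripts of 57.0 to 58.1% GC, and MCM6 had 43.1%, MCM4 48.5% and MCM3 51.6%. After the GC and length correction the log2 fold changes were -0.16 for MCM2 (unadjusted p = 0.0143), -0.13 for MCM7 (unadjusted p = 0.0301), -0.12 for MCM5 and 0.03 for MCM6, with adjusted p of 0.208 for MCM2 and 0.250 for MCM7. By span, MCM2 overlaps TPRA1 and MCM7 overlaps AP4M1 in the table, and no source used here gives the strand setting of the counting.

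**Figure D2:**
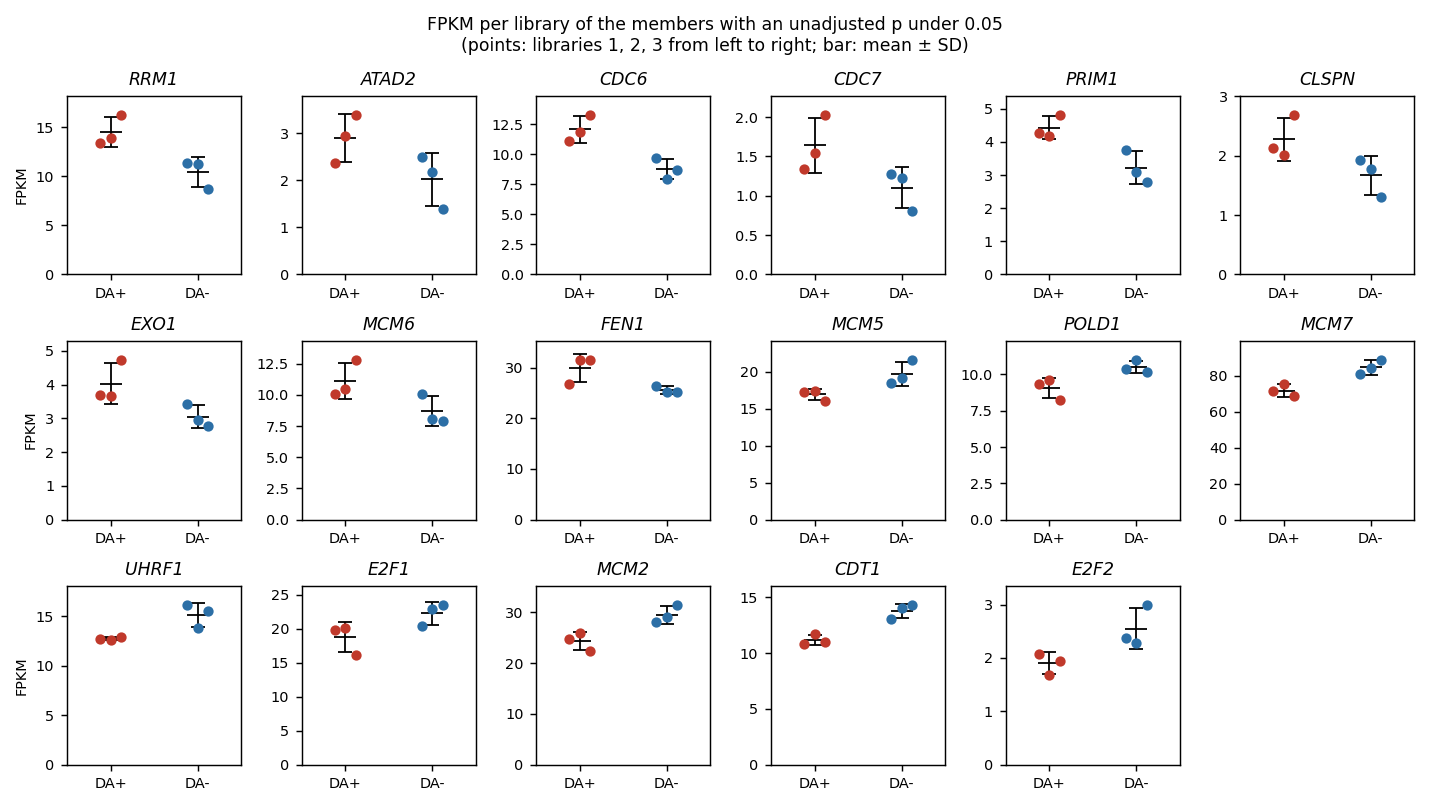
FPKM (vertical axes, each from 0) in the 3 DA+ and 3 DA- libraries for the 17 members with an unadjusted p under 0.05, ordered from the highest to the lowest log2 fold change; points are libraries and bars are mean ± SD. The 3 DA+ points of CDC6 lie at 11.1 to 13.3 FPKM, all above the DA- points at 7.97 to 9.68 FPKM, while those of MCM7 lie at 68.5 to 75.3 FPKM, all below the DA- points at 80.8 to 88.8 FPKM.

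Of the 6 firing genes CDC7 alone had an unadjusted p under 0.05. CDC7 encodes the kinase that starts licensed origins, and it had 1.34, 1.55 and 2.03 FPKM in DA+ replicates 1 to 3, against 1.28, 1.22 and 0.806 FPKM in DA- replicates 1 to 3. These values rest on 60 to 156 fragments per library, and the log2 fold change of 0.42 (SE 0.18, adjusted p = 0.145) was 0.02 after the GC and length correction. MCM10, a scaffold that joins helicase and polymerase, overlapped between the groups at 3.0, 3.12 and 4.61 FPKM in DA+ libraries, against 3.78, 2.87 and 2.29 FPKM in DA- libraries. CDC45, which encodes a helicase cofactor, had means of 9.19 ± 1.02 FPKM in DA+ and 9.30 ± 0.893 FPKM in DA- cells (SD, n = 3 each). The GINS subunit genes GINS1, GINS2 and GINS3, whose products bind the ring together with CDC45, also overlapped, with log2 fold changes of -0.02, -0.06 and -0.03 as deposited. GINS1 had 5.41, 4.95 and 5.91 FPKM in DA+ libraries, against 5.75, 5.27 and 5.47 FPKM in DA- libraries. After the correction all 3 were lower in DA+ cells, by log2 fold changes of -0.38 for GINS1 (unadjusted p = 0.00373), -0.17 for GINS2 (unadjusted p = 0.0369) and -0.33 for GINS3 (unadjusted p = 0.00380), none of them past the adjusted threshold (adjusted p = 0.153, 0.267 and 0.153). GINS1 and GINS3 have transcripts of 41.4% and 43.6% GC, a range in which most genes were higher in DA+ cells.

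The fork genes held 13 members, of which PRIM1 and FEN1 were higher and POLD1 was lower at an unadjusted p under 0.05. PRIM1, the primase subunit gene that makes the RNA primers, had 4.28, 4.19 and 4.82 FPKM in DA+ replicates 1 to 3, against 3.77, 3.10 and 2.80 FPKM in DA- replicates 1 to 3. The groups did not overlap, and the log2 fold change was 0.41 (SE 0.13, adjusted p = 0.111), or 0.14 after the GC and length correction. FEN1, the nuclease gene for trimming Okazaki fragments, had 26.8, 31.5 and 31.4 FPKM in DA+ libraries, against 26.4, 25.1 and 25.2 FPKM in DA- libraries. Its lowest DA+ value stood just above its highest DA- value. FEN1 had a log2 fold change of 0.22 (SE 0.09, limma adjusted p = 0.131) as deposited and 0.24 (unadjusted p = 0.0212, adjusted p = 0.228) after the correction, and its transcript has 53.7% GC. By span it overlaps TMEM258 and FADS2, both expressed.

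The polymerase genes were spread. POLD1, the catalytic subunit gene of the lagging-strand polymerase delta, had 9.36, 9.59 and 8.25 FPKM in DA+ replicates 1 to 3, against 10.4, 11 and 10.2 FPKM in DA- replicates 1 to 3. The groups did not overlap, with a log2 fold change of -0.21 (SE 0.09, limma adjusted p = 0.154), or -0.03 after the correction. POLE, which encodes the leading-strand polymerase epsilon, and LIG1, the ligase gene that seals Okazaki fragments, also had every DA+ value below every DA- value. Their means were 4.12 ± 0.210 FPKM in DA+ and 4.73 ± 0.521 FPKM in DA- cells for POLE, and 8.18 ± 0.646 FPKM in DA+ and 9.26 ± 0.713 FPKM in DA- cells for LIG1 (SD, n = 3 each). Neither reached an unadjusted p under 0.05. POLA1, the gene of the polymerase that extends the primers, overlapped between the groups at 1.52, 1.46 and 2.05 FPKM in DA+ libraries, against 1.55, 0.997 and 0.931 FPKM in DA- libraries. PCNA, the gene of the sliding clamp, had 57.6, 68.4 and 77.7 FPKM in DA+ libraries, against 61.7, 55.5 and 52.5 FPKM in DA- libraries. One DA- library lay within the DA+ range, and the log2 fold change of 0.25 (95% interval -0.00 to 0.51, unadjusted p = 0.0501) was 0.07 after the correction. The clamp loader genes RFC2, RFC3, RFC4 and RFC5 and the genes of the single-strand binding protein, RPA1 and RPA2, all overlapped, with log2 fold changes from -0.08 for RFC2 to 0.37 for RFC3.

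The 4 genes of repair and the fork checkpoint all had a log2 fold change above 0, from 0.26 for TIPIN to 0.36 for CLSPN, with a median of 0.31 that was -0.02 after the GC and length correction. EXO1, the gene of an exonuclease in mismatch repair and end resection, had 3.69, 3.65 and 4.73 FPKM in DA+ replicates 1 to 3, against 3.43, 2.94 and 2.78 FPKM in DA- replicates 1 to 3. CLSPN encodes claspin, which links a stalled fork to the checkpoint kinase, and had 2.13, 2.01 and 2.69 FPKM in DA+ libraries, against 1.93, 1.77 and 1.3 FPKM in DA- libraries. In both genes the groups did not overlap. The log2 fold changes were 0.35 for EXO1 (SE 0.13, adjusted p = 0.128) and 0.36 for CLSPN (SE 0.16, adjusted p = 0.151), and after the correction 0.01 for EXO1 and 0.11 for CLSPN. MSH6, a mismatch recognition gene, and TIPIN, the gene of a fork protection factor, overlapped. MSH6 ranged from 5.39 to 7.02 FPKM in DA+ and from 3.83 to 6.07 FPKM in DA- libraries.

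Of the chromatin genes UHRF1 and ATAD2 stood on opposite sides. UHRF1, which encodes the factor that guides the maintenance methyltransferase to newly copied DNA, had 12.7, 12.6 and 12.9 FPKM in DA+ replicates 1 to 3, against 16.1, 13.8 and 15.5 FPKM in DA- replicates 1 to 3. The DA+ libraries lay close together and all below the DA- libraries, with a log2 fold change of -0.24 (SE 0.09, limma adjusted p = 0.117) and of -0.19 (unadjusted p = 0.0135, adjusted p = 0.205) after the correction. ATAD2, a chromatin ATPase gene, had 2.37, 2.94 and 3.39 FPKM in DA+ libraries, against 2.49, 2.17 and 1.39 FPKM in DA- libraries. Its groups overlapped, and its log2 fold change of 0.45 (SE 0.19, adjusted p = 0.144) was 0.04 after the correction. The histone chaperone subunit genes CHAF1A and CHAF1B overlapped, with log2 fold changes of -0.10 and -0.08. CHAF1B was at -0.21 after the correction (unadjusted p = 0.0125, adjusted p = 0.198). SLBP, which encodes the protein that binds the stem loop of histone messengers, had means of 30.2 ± 3.42 FPKM in DA+ and 27.4 ± 1.41 FPKM in DA- cells (SD, n = 3 each). HELLS, a chromatin remodeller gene, was below the level for testing, at 0.630, 0.699 and 1.17 FPKM in DA+ libraries and 0.932, 0.604 and 0.589 FPKM in DA- libraries.

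Among the regulators of the G1/S transition the E2F activator genes E2F1 and E2F2 were lower in DA+ cells at an unadjusted p under 0.05, and E2F3 was not. E2F1 (ENSG00000101412.9, hg19 chromosome 20, 32263489 to 32274210) had 19.9, 20.2 and 16.2 FPKM in DA+ replicates 1 to 3, against 20.4, 23.0 and 23.5 FPKM in DA- replicates 1 to 3. E2F2 had 2.08, 1.69 and 1.95 FPKM in DA+ libraries, against 2.37, 2.28 and 2.99 FPKM in DA- libraries. Neither gene overlapped between the groups, with log2 fold changes of -0.25 (SE 0.10, adjusted p = 0.141) for E2F1 and -0.34 (SE 0.14, adjusted p = 0.137) for E2F2. After the correction they were -0.08 for E2F1 and -0.24 for E2F2 (unadjusted p = 0.0512). E2F3 ranged from 6.08 to 6.97 FPKM in DA+ and from 5.00 to 6.30 FPKM in DA- libraries, and its log2 fold change of 0.18 had a 95% interval of -0.07 to 0.43. CCNE1, the cyclin E1 gene whose product activates CDK2 at the G1/S boundary, had 5.58, 5.6 and 5.68 FPKM in DA+ libraries, against 5.54, 5.08 and 6.50 FPKM in DA- libraries. The DA+ values fell inside the DA- range, and the log2 fold change of -0.01 had an interval of -0.26 to 0.23. CCNE2, the cyclin E2 gene, was below the level for testing, at 0.417, 0.879 and 1.19 FPKM in DA+ libraries and 1.00, 0.919 and 0.550 FPKM in DA- libraries, or 38 to 112 fragments.

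Of the 3 nucleotide supply genes RRM1 alone had an unadjusted p under 0.05. RRM1 (ENSG00000167325.10, hg19 chromosome 11, 4115937 to 4160106), the large subunit gene of ribonucleotide reductase, had 13.4, 13.9 and 16.3 FPKM in DA+ replicates 1 to 3, against 11.4, 11.3 and 8.74 FPKM in DA- replicates 1 to 3. The groups did not overlap, and the log2 fold change of 0.46 (SE 0.12, unadjusted p = 0.00408, adjusted p = 0.11) was 0.16 (unadjusted p = 0.0577) after the GC and length correction. RRM2, the small subunit gene, which in cycling cells is the S phase limited partner, had 27.3, 29 and 35.8 FPKM in DA+ libraries, against 28.4, 24.6 and 26.9 FPKM in DA- libraries. Its groups overlapped (log2 fold change 0.20, 95% interval -0.05 to 0.44). TYMS, the thymidylate synthase gene, ranged from 35.5 to 36.5 FPKM in DA+ and from 33.0 to 38.8 FPKM in DA- libraries, with a log2 fold change of -0.02 (interval -0.20 to 0.17).

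By level, per length and over all 6 libraries, MCM7 was the most abundant member at 78.2 FPKM, followed by PCNA at 62.2, RFC2 at 38.3 and TYMS at 36.3 FPKM. The other ring genes stood at 27.4 (MCM3), 26.9 (MCM2), 18.3 (MCM5), 16.8 (MCM4) and 9.92 FPKM (MCM6), and CCNE2 and HELLS were lowest at 0.826 and 0.771 FPKM. These levels depend on the length used by the authors. The smallest length at which all 6 values of a member came close to whole fragment numbers was found for 46 members. For 44 of them, all but CCNE2 and HELLS, no other length close to the smallest fitted, and longer lengths were not counted. For 45 of the 46 members the length lay within 10% of the union of all annotated exons in GENCODE 29 (CDC6 being the exception). For MCM5 it was 7338 bases, against 4599 bases for the longest transcript, and for POLE 16605 against 8011 bases, so the level of such a gene is understated relative to its messenger. Through the pseudocount the fold change of a low gene is also understated more. Behind the values stood 38 to 8954 fragments per member and library, with a median of 752.5. The counting error of a value was 1.16% (MCM7) to 11.3% (CCNE2). Over the 44 tested members the median coefficient of variation within a group was 9.40%, against a median counting error of 3.36%, and it exceeded the counting error in 43 of them, ORC1 being the exception.

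Across the members the fold change followed GC content. Over the 44 tested members Pearson's r between GC content of the longest transcript and log2 fold change was -0.85 (Spearman's rho -0.85), against -0.75 (rho -0.78) over 11678 tested genes with a GC value; genes share the 6 libraries and are not independent, so these are descriptions. Of the 26 members under 50% GC, 21 had a log2 fold change above 0 (80.8%, against 90.4% of all such genes), 8 being higher by the unadjusted p (30.8%, against 44.7% of such genes) and 0 lower (against 0.514%). Of the 18 members of 50% GC or more, 3 had a log2 fold change above 0 (16.7%, against 27.6%), with 1 higher at that p, FEN1 (5.56%, against 2.83%), and 8 lower (44.4%, against 16.1%). The 9 members higher at that p had 39.1 to 53.7% GC and the 8 lower ones 54.6 to 65.0%. After the GC and length correction r over the members was -0.21 and the SD of their log2 fold changes was 0.13, against 0.24 before. At an unadjusted p under 0.05 were then 2 members higher (CDC6 and FEN1) and 7 lower (MCM2, MCM7, GINS1, GINS2, GINS3, UHRF1 and CHAF1B), which is 4.55% and 15.9%, against 8.34% and 8.49% of all genes. Of the 44 members 0 passed the adjusted threshold after the correction, where 0.223% of all genes did. The GC slopes of the groups did not overlap, so GC slope and treatment cannot be told apart in these libraries.

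**Figure D3:**
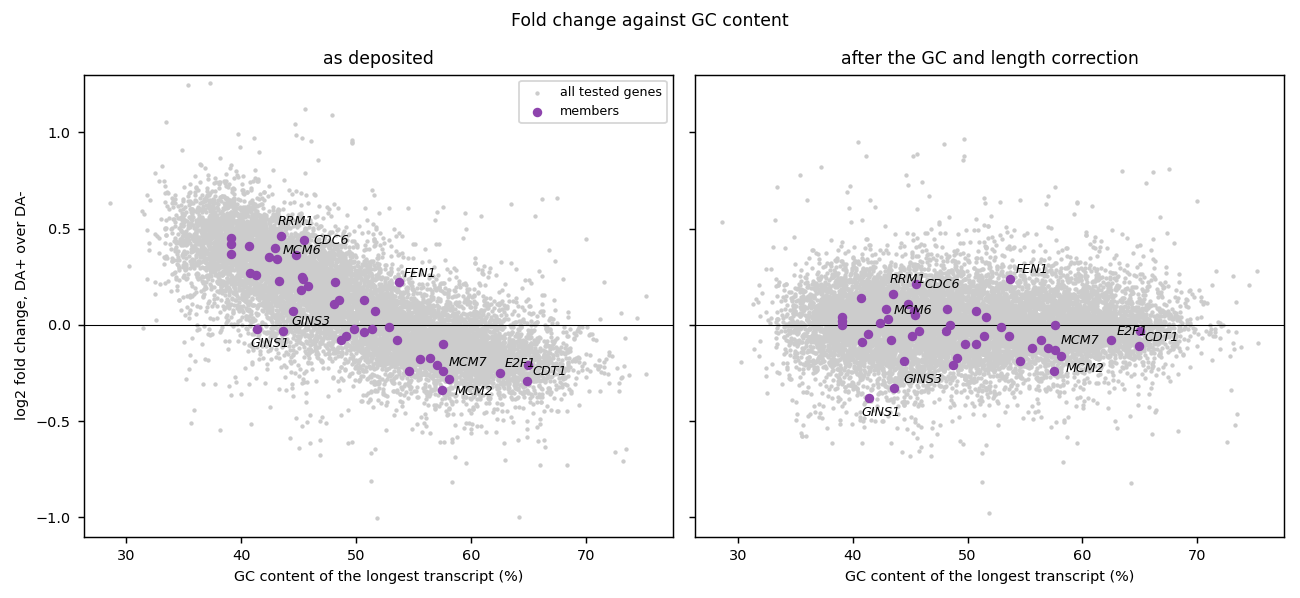
Log2 fold change, DA+ over DA- (vertical axis), against GC content of the longest transcript in percent (horizontal axis) for all tested genes (grey) and the 44 tested members (purple), as deposited and after the GC and length correction; a few genes above 1.3 lie outside the axis. As deposited the members fall along the trend of all genes (r = -0.85), with FEN1, GINS1 and GINS3 off it, and after the correction r is -0.21.

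The libraries numbered 3 held most of the highest values. DA+ replicate 3 had the highest value of the 6 libraries in 23 of 44 members (52.3%, against 44.2% of all tested genes), and DA- replicate 3 had the highest in 16 (36.4%, against 19.4%) and the lowest in 14 (31.8%, against 33.1%). The summed FPKM of the 46 members was 620.0, 646.1 and 682.4 in DA+ replicates 1 to 3, against 648.7, 614.3 and 648.4 in DA- replicates 1 to 3. The sums overlapped, with means of 650 ± 31.4 in DA+ and 637 ± 19.8 in DA- cells (SD, n = 3 each). With both replicates numbered 3 left out 6 members had an unadjusted p under 0.05 (13.6%, against 13.1% of all genes), 2 higher and 4 lower.

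**Figure D4:**
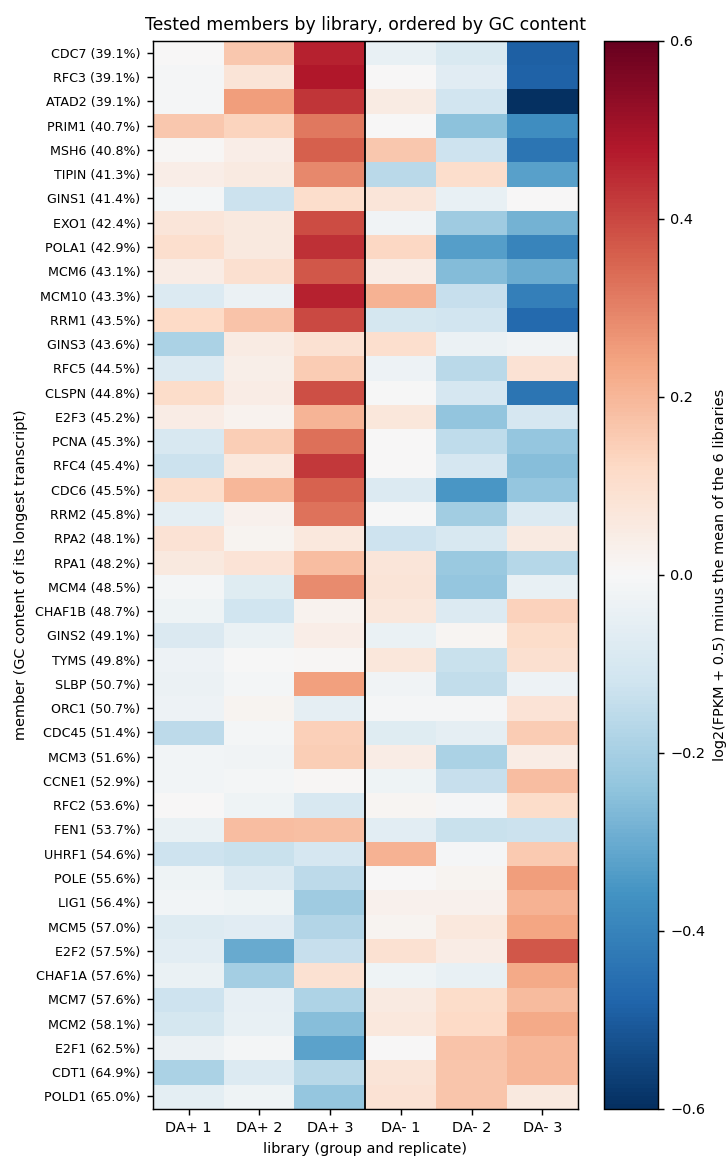
Log2(FPKM + 0.5) of each tested member minus its mean over the 6 libraries (colour), by library (columns, DA+ left of DA-) and member (rows, ordered by GC content of the longest transcript, from 39.1% at the top to 65.0% at the bottom). DA+ replicate 3 and DA- replicate 3 show the strongest colours, in opposite senses at the top and the bottom.

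A list of 60 further genes of the G1/S transition and replication, of which 57 were tested, was read in the same way. At an adjusted p under 0.05 lay 0 of 57, and at an unadjusted p under 0.05 13 were higher (22.8%, against 24.4% of all genes) and 4 lower (7.02%, against 8.05%), with a median log2 fold change of 0.21. After the GC and length correction the balance turned round, with 3 higher (5.26%, against 8.34%) and 6 lower (10.5%, against 8.49%) and a median of -0.06. The smallest p among the higher ones belonged to ASF1A, a histone chaperone gene, at 4.36 ± 0.698 FPKM in DA+ and 2.58 ± 0.129 FPKM in DA- cells (SD, n = 3 each). GMNN, the gene of geminin, which blocks CDT1, had 8.20 ± 1.18 FPKM in DA+ and 6.06 ± 0.594 FPKM in DA- cells, and TFDP2, an E2F partner gene, 2.66 ± 0.339 FPKM in DA+ and 1.85 ± 0.193 FPKM in DA- cells. Their log2 fold changes of 0.65 (ASF1A), 0.40 (GMNN) and 0.42 (TFDP2) were 0.26, 0.20 and 0.23 after the correction, with unadjusted p of 0.0310, 0.0492 and 0.0187. Among the lower ones POLD2, a polymerase delta subunit gene, had 65.9 ± 5.84 FPKM in DA+ and 79.1 ± 4.96 FPKM in DA- cells, the helicase gene RECQL4 7.23 ± 0.880 FPKM in DA+ and 8.74 ± 0.295 FPKM in DA- cells, and the thymidine kinase gene TK1 44.4 ± 5.20 FPKM in DA+ and 52.5 ± 3.40 FPKM in DA- cells. The log2 fold changes of POLD2, RECQL4 and TK1 were -0.26, -0.26 and -0.24 as deposited and -0.14, -0.08 and -0.08 after the correction, where POLD2 had an unadjusted p of 0.0281, RECQL4 of 0.242 and TK1 of 0.197. None of these 6 passed the adjusted threshold in limma (adjusted p from 0.11 to 0.133). The count of 17 (29.8% of 57, against 32.5% of all genes) was 6 without DA+ replicate 3, 9 without DA- replicate 2, 5 without DA- replicate 3 and 26 without DA- replicate 1. Over all tested genes the shares in these settings were 16.9%, 19.2%, 16.4% and 37.7%.

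Replication-dependent histone genes are switched on with DNA synthesis, and their messengers mostly lack poly(A) tails. The labels describe the libraries as depleted of rRNA, and that was not tested against the histone values. In these libraries 21 of 60 histone genes had a mean FPKM of 1 or more. The highest were HIST1H2BK at 163 FPKM and HIST1H1C at 76.4 FPKM over all 6 libraries, while HIST1H4C and HIST1H1B stood at 0.205 and 0.154 FPKM. The summed FPKM over the 60 histone genes was 390, 414 and 383 in DA+ replicates 1 to 3, against 390, 391 and 368 in DA- replicates 1 to 3, so the groups overlapped. This sum rests largely on a few genes, and whether it follows DNA synthesis was not tested. Of 21 tested histone genes 0 had an adjusted p under 0.05 in limma, and at an unadjusted p under 0.05 6 were higher (28.6%, against 24.4% of all genes) and 1 lower (4.76%, against 8.05%). After the GC and length correction 3 were higher (14.3%, against 8.34%) and 2 lower (9.52%, against 8.49%). The count of 7 before it (33.3% of 21, against 32.5% of all genes) was 4 without DA+ replicate 2 and 4 without DA+ replicate 3. Over all tested genes the shares in these 2 settings were 27.9% and 16.9%. Near-identical copies of histone genes can share reads, so single values are uncertain.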

How the data were processed

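RNA of 6 libraries was analysed, grouped by sample title. Per the labels' protocols, ribosomal RNA was removed from TRIzol-extracted total RNA and stranded libraries were made with random primers. The authors deposited FPKM values with hg19 coordinates. The submitters' processing notes name FastQC 0.11.9, STAR 2.7.1a, HTSeq 0.11.2 and DESeq2 1.40.2, with no role. No source used here gives the annotation, the strand setting or the step from counts to FPKM, and the spans of 19 members overlap another gene of the table, so their values are uncertain.

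Values were analysed as log2(FPKM + 0.5), which understates fold changes of low genes. The 11791 genes whose FPKM averaged at least 1 entered limma 3.58.1 under R 4.3.3 (two-sided moderated test, prior with trend, Benjamini-Hochberg over all tested genes, threshold 0.05). The fit was tested on simulated data. Totals came from short pseudogenes (span 150 to 1500 bases, taken as single exons), 92.5 to 93.9% of whose low values were whole fragments within 0.03. The GC and length correction took from each library a loess trend (span 0.5) of its deviations over GC content and log2 length, both of the longest GENCODE 29 transcript, matched by gene identifier or symbol, for 99.0% of tested genes. Promoters came from RefSeq (GRCh38.p14).

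The members, lists, tests and alternatives were chosen with earlier results of these data known. Every member is accounted for, those with an unadjusted p under 0.05 with values in each library, fold change, SE, adjusted p and corrected fold change, and of the 60 further genes the 3 smallest p in each direction. The alternatives were pseudocounts of 0.1 and 1, no filter or one at mean FPKM 0.3 or 5, scaling by median of ratios, TPM or quantiles, other priors, quality weights, the replicate block, the correction, and leaving out libraries.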

Additional observations from a re-analysis of the deposited data

How the results depend on the processing

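All 17 members with an unadjusted p under 0.05 kept their direction in every alternative that tested them. Of the other 27 tested members 16 changed sign, by unrounded values, in at least 1 of 21 alternatives. The cause of the changes below was not tested. Genes called in all were 12 in the reported fit, 6 without a filter, 27 after quantile normalization, 5 without a trend, 2706 with quality weights, 26 after the GC and length correction, 7 with both replicates numbered 3 left out, and 3 to 2177 when single libraries were left out (2177 without DA- replicate 1). Members called were 0, or 9 with quality weights, and 0 to 5 over single libraries left out. Members at an unadjusted p under 0.05 were 17, or 9 after the correction, 10 after the correction with the replicate block, 6 with both replicates numbered 3 left out, and 6 to 20 over single libraries left out. The median log2 fold change of the members was 0.09, or -0.01 at a filter of mean FPKM 5, 0.00 after median-of-ratios scaling, -0.04 after the correction and -0.04 after it with the replicate block. All tested genes had medians of 0.08 as deposited and 0.00 after median-of-ratios scaling. Further replication genes at an unadjusted p under 0.05 were 17, or 9 of 27 at the filter of 5, 9 after the correction, 11 after it with the replicate block, 1 with both replicates numbered 3 left out, and 5 to 26 over single libraries. Histone genes were 7, or 1 of 7 tested at the filter of 5, and 4 to 8 over single libraries. The share of all tested genes at an unadjusted p under 0.05 in limma also changed. It was 32.5%, or 35.3% at the filter of 5, 16.8% after the correction and 18.3% after it with the replicate block. With both replicates numbered 3 left out it was 13.1%, and over single libraries left out 16.4 to 37.7%. The difference of mean GC slopes, DA+ minus DA-, was -0.23, or -0.01 after the correction, -0.01 after it with the replicate block and -0.11 with both replicates numbered 3 left out.

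The labels do not say whether equal replicate numbers pair the libraries. The deviations of equally numbered libraries from their group means correlated at -0.203, 0.282 and -0.367. These values cannot decide it, since differently numbered libraries were not compared. With the replicate block 3 genes were called in all, and 0 members were called. At an unadjusted p under 0.05 in that fit lay 8 members (18.2%) and 8 of the 57 further replication genes, against 21.9% of all tested genes. Of these members 4 were higher and 4 lower. The members' log2 fold changes had a median SE of 0.11.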
